A study of Mus musculus with 8 samples.

Results

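The response to an antibody against PD-1 was measured in CT26 tumors as a contrast of 4 arrays with the antibody and 4 arrays without it. CT26 is a colon carcinoma line of BALB/c mice, and the tumors grew under the skin of the flank of BALB/c mice, from 500000 implanted cells. By the study's methods the hosts were females of 6 to 10 weeks with an intact immune system, randomized when tumors reached 100 to 200 mm3. Vehicle mice received no active agent. TP-16 mice received 75 mg/kg of TP-16 (labelled BY001), an oral antagonist of the prostaglandin E2 receptor EP4, every day. Anti-PD-1 mice received 50 µg of the antibody into the peritoneum in 2 doses a week, and combination mice received both agents. Treatment lasted 2 weeks, and 2 arrays were hybridized for each of the 4 groups. The members of the contrast were chosen by treatment alone: anti-PD-1 and combination arrays formed the antibody side, vehicle and TP-16 arrays the other side, and together they were all 8 arrays of the series. TP-16 entered the fit as the other factor, so each antibody effect is the average of the effect without TP-16 and the effect with it. The methods name antibody clone RMP1-14 and a rat IgG2a isotype control, and whether the vehicle mice of these arrays received that isotype is not given in the sources used here. Nothing said whether an array held 1 tumor or a pool, so p-values measure the spread between these samples, which may be technical.

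PD-1, the product of Pdcd1, is an inhibitory receptor on activated T cells. Its ligands PD-L1 (Cd274) and PD-L2 (Pdcd1lg2) sit on tumor and myeloid cells, and their binding recruits phosphatases that dampen signaling from the T-cell receptor and CD28. Blocking antibodies relieve that brake, and interferon gamma released by T cells then acts on neighboring cells to induce GTPases, antigen presentation, T-cell-attracting chemokines and PD-L1 itself.

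Each value below is a level on the log2 scale, the probe's signal minus the 75th percentile of its array, and a difference is the antibody side minus the other side from the additive limma fit, with its standard error (SE). Per-array levels are given in the order replicate 1, replicate 2. The 75th percentile signal was 371.1 to 733.6 over the arrays, and 51.4% to 59.7% of probes were well above background. All arrays lay on 1 slide. The second field of the array barcode was 1 for arrays without antibody and 2 for those with it. What that field marks is not stated in the sources used here, and it cannot be told apart from antibody. Both vehicle arrays stood apart. Vehicle replicate 2 had a spike-in slope of 0.799, against 0.918 to 0.960 on the other arrays, and its 2 dimmest spike-ins read 4.95 log2 units against 2.39 to 2.77. Vehicle replicate 1 was the lowest of the 8 arrays for most interferon-induced, T-cell and antigen-presentation genes described below, and also for 12 of 13 skeletal muscle genes. The SD over probes of the difference between replicates was 0.675 in vehicle tumors and 0.417 to 0.525 in the other groups. For each list the 2 genes with the smallest p are named, and further members were named after their values were seen. Where the probe a gene is given by was not well above background on some arrays, the number of arrays that measured it is given, and the difference then rests in part on dim values.

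In this account a gene is called when its fold is 2 or more with an unadjusted p of 0.05 or less in limma, the threshold of the study's methods; adjusted p values are printed beside single genes. Genes called higher on the antibody side included both PD-1 ligands, 21 of 28 interferon gamma genes (9 of 28 without vehicle replicate 1), 10 of 36 genes of chemokines and their receptors, and the mast-cell proteases Cpa3 and Mcpt4. The largest difference was in Retnla, a secreted protein of alternatively activated macrophages. Of 21616 gene names tested, 569 were called higher (2.63%) and 201 lower (0.93%), or 3.56% in either direction. By probe, 732 were called higher and 258 lower of 31912. No probe passed a Benjamini-Hochberg adjusted p of 0.05 in limma, with a smallest adjusted p of 0.068, while 9152 probes had an unadjusted p of 0.05 or less whatever the fold. That last group leaned to the lower side, with 6348 probes lower and 2804 higher, and 37.2% of gene names had a mean difference above 0. The median difference over all tested genes was -0.0944. The direction of small differences depended on the scaling. The 8 bright spike-ins read 4.32 to 5.32 log2 units above the 75th percentile without antibody and 3.81 to 5.01 with it, so scaling to them, an alternative chosen after seeing the data, added 0.36 to every difference. The median over genes was then 0.27, and 84.2% of gene names lay above 0. A difference printed here between -0.36 and 0 is therefore positive under that scaling. The sides did not overlap for 1400 gene names (6.48%), with the antibody arrays all above for 615 (2.85%) and all below for 785 (3.63%), and 199 of the called higher and 43 of the called lower genes were among them.

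The count past adjustment depended on the model. It was 1381 probes under spike-in scaling, of which 1363 were higher, 430 probes with trended and robust moderation, 170 after normexp background correction and 108 when testing was limited to probes that all 8 arrays measured well above background. Of the 430, 351 were higher. The share of called probes that were higher was 73.9%, and it was 86.1% under quantile normalization (1012 higher, 163 lower), 92.2% after normexp (260 higher, 22 lower) and 96.8% under spike-in scaling (1930 higher, 63 lower). Under spike-in scaling 0 genes of the 28 lists were called lower. Without vehicle replicate 2 the called probes numbered 1322, of which 87.4% were higher. Leaving out TP-16 replicate 2 gave 865, of which 54.5% were higher.

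**Figure D1:**
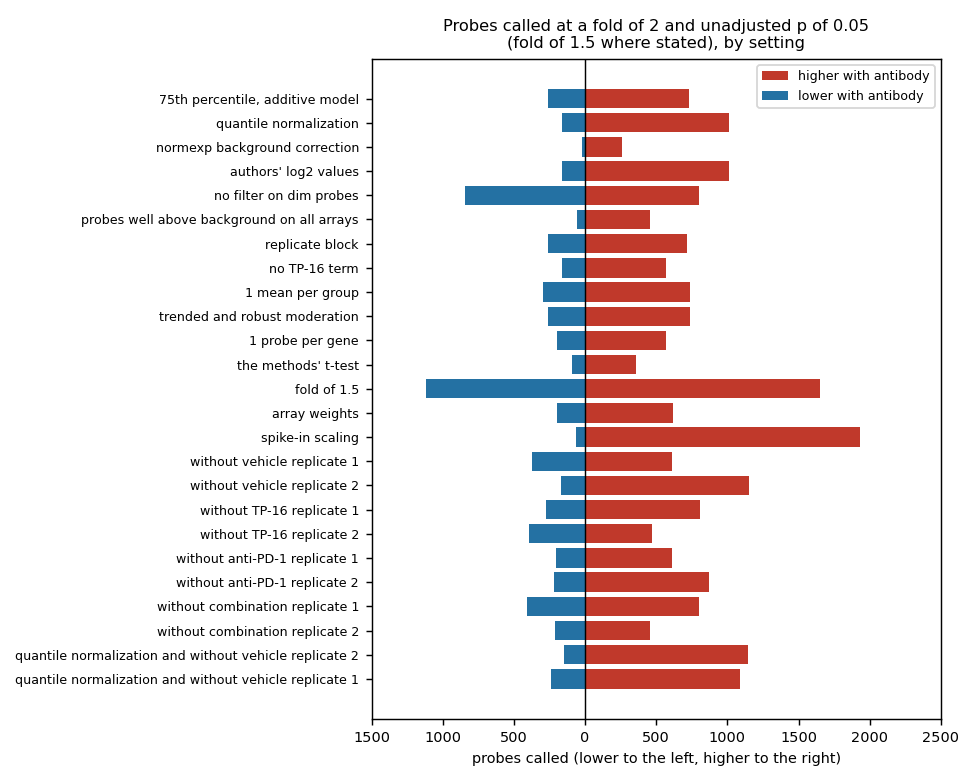
Called probes under each way of processing the arrays, with higher and lower probes counted apart on the x axis. The processing used throughout gave 732 higher and 258 lower, and the setting without a filter on dim probes had more lower than higher probes, 842 against 797.

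PD-1 ligands were called higher, while the receptor itself missed the fold of 2. Cd274 read 0.54 and 1.77 in vehicle, 2.70 and 2.21 in TP-16, 3.10 and 2.75 in anti-PD-1 and 3.52 and 3.97 in combination tumors. All antibody arrays lay above all others, a difference of 1.53 (SE 0.30, 2.89-fold, adjusted p = 0.0712). Pdcd1lg2 read -1.87 and -1.56 in vehicle, -0.53 and -0.29 in TP-16, 0.16 and -0.44 in anti-PD-1 and 0.57 and 1.33 in combination tumors. Within each TP-16 level the antibody arrays were higher, and across levels anti-PD-1 replicate 2 fell among the TP-16 arrays. The difference was 1.47 (SE 0.21, 2.76-fold, adjusted p = 0.068). Both ligands were called with any 1 array left out. Pdcd1 read -0.79 and 0.90 in vehicle, 1.77 and 1.5 in TP-16, 1.33 and 1.2 in anti-PD-1 and 1.94 and 2.67 in combination tumors, so the sides overlapped. Its difference was 0.94 (SE 0.38, adjusted p = 0.158). Spike-in scaling adds 0.36, which takes Pdcd1 past the fold of 2.

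Of 18 genes on the list for the PD-1 receptor, its ligands and signaling, 6 were called higher and 0 lower, and the median difference was 0.899. Icos, a costimulatory receptor of activated T cells, read -2.82 and -0.90 in vehicle, -0.17 and -0.36 in TP-16, 0.54 and 0.07 in anti-PD-1 and 0.77 and 1.75 in combination tumors. The sides did not overlap, and the difference was 1.85 (SE 0.45, 3.6-fold, adjusted p = 0.0777), or 1.40 without vehicle replicate 1. Tcf7, a transcription factor of naive and stem-like T cells, differed by 1.05 (SE 0.17, adjusted p = 0.068) without overlap, and 2 of the 4 arrays without antibody measured it well above background. A second Tcf7 probe differed by 0.147 and was not called. Cd28 differed by 1.27 and Tbx21, which encodes T-bet of effector T cells, by 1.36. The phosphatase gene Ptpn11 differed by 0.00 (SE 0.09) and Ptpn6 by 0.52 (SE 0.23), and neither was called. Without vehicle replicate 1 the list had a median of 0.63 and 3 called genes, with Cd28 at 0.99, Tcf7 at 0.89 and Tbx21 at 0.87, and without vehicle replicate 2 it had 10.

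**Figure D2:**
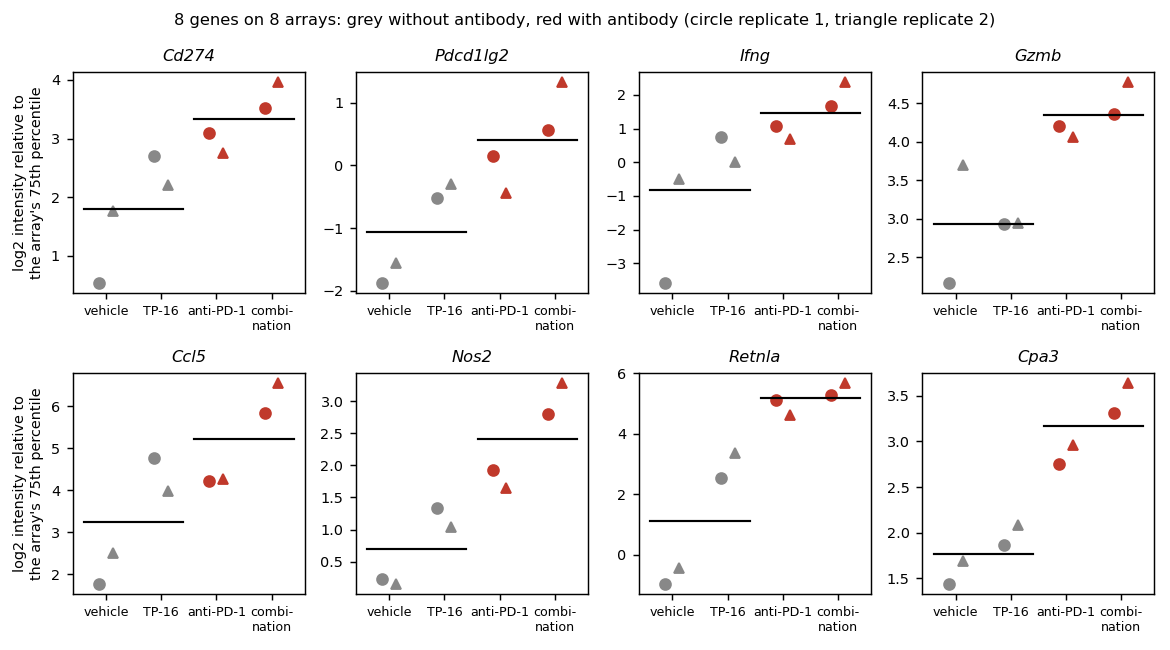
Level of 8 genes on each of the 8 arrays (log2 signal relative to the 75th percentile of the array), grey without antibody and red with it, circles for replicate 1 and triangles for replicate 2, and a horizontal line at the mean of each side. Cd274, Gzmb, Nos2, Retnla and Cpa3 show no overlap between the sides, whereas Pdcd1lg2, Ifng and Ccl5 do.

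Genes of the T-cell receptor complex were all higher in mean on the antibody side, and 6 of 15 were called higher, with a median difference of 1.35. Cd2, an adhesion and costimulatory receptor, read -1.21 and 0.23 in vehicle, 1.6 and 1.02 in TP-16, 1.63 and 1.24 in anti-PD-1 and 2.19 and 3.23 in combination tumors. The vehicle arrays were the lowest and the combination arrays among the highest, and the difference was 1.66 (SE 0.38, adjusted p = 0.0746). Thy1, a surface protein of T cells and some fibroblasts, had the smallest p of the list and separate sides, and at 0.81 (SE 0.18) stayed under the fold of 2. Cd5 differed by 1.54 (SE 0.36) and Cd6, a related receptor, by 1.46 (SE 0.40). The defining chains were more variable. Cd3e differed by 0.84 (SE 0.29, adjusted p = 0.125) and Cd8a by 1.72 (SE 0.79, adjusted p = 0.205), where vehicle replicate 1 read -5.02 and vehicle replicate 2 -1.43, so Cd8a was not called. Of the arrays without antibody, 3 of 4 measured Cd8a well above background. Cd4 differed by 0.33 and Cd247, the zeta chain, by 0.09. In bulk tumor RNA more T cells and more RNA per T cell cannot be told apart. The list had 3 called genes and a median of 0.735 without vehicle replicate 1, 12 called without vehicle replicate 2 and 1 with no TP-16 term.

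Other inhibitory and costimulatory receptors had 5 of 13 tested genes called higher, with a median of 0.96. Cd226, an activating receptor of T and natural killer cells, read -4.14 and -2.83 in vehicle, -0.89 and -1.37 in TP-16, -1.25 and -1.63 in anti-PD-1 and -0.37 and 0.41 in combination tumors. It was higher with antibody at each level of TP-16, by 1.6 on average (SE 0.36, adjusted p = 0.074), and it was called with any 1 array left out. It was well above background on 3 of the 4 arrays without antibody. Entpd1, an ectonucleotidase also known as CD39, differed by 1.04 (SE 0.23), and its call was lost without vehicle replicate 1 (0.91), TP-16 replicate 2 (0.94), anti-PD-1 replicate 1 (0.99) or combination replicate 2 (0.90). The list had 1 called gene without vehicle replicate 1 or without combination replicate 2, 2 without TP-16 replicate 2 or anti-PD-1 replicate 1, and 8 without vehicle replicate 2. Natural killer cell genes had 2 of 10 called higher, Klrc1 and Cd226, with 7 called without vehicle replicate 2 and 4 without TP-16 replicate 1 or combination replicate 1. Klrc1 differed by 1.73, but 2 of the 4 arrays without antibody, both vehicle arrays, did not measure it well above background. Of 8 regulatory T-cell genes, 1 was called higher, Il2ra, and 2 were under quantile normalization and in the authors' values. Foxp3, which defines that lineage, read between -3.04 and -1.85 without antibody and between -2.73 and -2.17 with it, a difference of 0.02 (SE 0.25). Ikzf4 differed by 0.97 (SE 0.22) and was not called, and its other probes differed by 0.09 (SE 0.23) and 0.53 (SE 0.44).

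Cytotoxic effector genes had 12 of 17 tested called higher and 0 lower, with a median difference of 1.19. Gzmb, the granzyme of activated killer cells, read 2.17 and 3.70 in vehicle, 2.93 and 2.94 in TP-16, 4.21 and 4.07 in anti-PD-1 and 4.37 and 4.78 in combination tumors. The sides did not overlap, the difference was 1.42 (SE 0.32, 2.68-fold, adjusted p = 0.0737), and it was called with any 1 array left out. Ifng, the interferon gamma gene, read -3.58 and -0.49 in vehicle, 0.75 and 0.00 in TP-16, 1.09 and 0.70 in anti-PD-1 and 1.67 and 2.38 in combination tumors. Vehicle replicate 1 was far below every other array, and TP-16 replicate 1 overlapped the antibody side. The difference was 2.29 (SE 0.68, 4.88-fold, adjusted p = 0.0965), and 1.54 without vehicle replicate 1. Il2ra differed by 1.08 (SE 0.27) without overlap and Fasl, the ligand of the death receptor Fas, by 1.32 (SE 0.41), and both calls were lost without vehicle replicate 1, at 0.82 and 0.90. A second Il2ra probe differed by -0.103. Tnf differed by 1.17 (SE 0.34) and was not called without vehicle replicate 1, TP-16 replicate 2 or combination replicate 2, at 0.95 to 0.99. A second Tnf probe differed by 0.59 (SE 0.26) and was not called. Prf1, the pore-forming perforin, differed by 0.97 (SE 0.33) and Cd69 by 0.66 (SE 0.22), and neither reached a fold of 2. Lamp1 read 7.37 to 7.69 on every array and differed by -0.02 (SE 0.08), a sign that turned under quantile normalization (0.21) and in the authors' values (0.21).

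Granzymes c to f, a cluster of neighboring genes with closely related sequences, behaved apart from Gzmb. They are named here after their values were seen, and probes may not separate them. Gzmd read 1.61 and 2.96 in vehicle, -1.29 and -1.37 in TP-16, 2.63 and 2.77 in anti-PD-1 and 2.36 and 1.98 in combination tumors. The TP-16 arrays were low and the 3 other groups close together, so the antibody effect was 0.41 without TP-16 and 3.51 with it. Gzme followed the same order, with effects of 0.31 and 3.19, as did Gzmf with 0.31 and 3.30 and Gzmc with 0.17 and 2.21. Against vehicle replicate 2 alone the effects without TP-16 were -0.77 to -0.26 for the 4 genes, and against vehicle replicate 1 alone 0.70 to 1.39. The differences between the effects did not pass adjustment for any of the 4. For the cytotoxic list 4 genes were called without vehicle replicate 1, with a median of 0.901, and 6 without TP-16 replicate 2 or combination replicate 2. The methods' t-test, which has no TP-16 term, called 2.

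Interferon gamma signaling genes and the GTPases that interferon gamma induces had the highest share called over all arrays, 21 of 28 tested, but the third highest, 9 of 28, without vehicle replicate 1. The median difference was 1.43 and 0 were called lower. The 28 genes summed to 123 to 602 times the 75th percentile signal without antibody and 671 to 1000 times with it, and 12 of the 28 showed no overlap. Nos2, inducible nitric oxide synthase, had the smallest p of the list. It read 0.23 and 0.16 in vehicle, 1.34 and 1.05 in TP-16, 1.93 and 1.65 in anti-PD-1 and 2.80 and 3.28 in combination tumors. Replicates were close and the sides separate, a difference of 1.72 (SE 0.14, 3.30-fold, adjusted p = 0.068), with effects of 1.6 without TP-16 and 1.85 with it. Gbp10, a guanylate-binding protein whose probe may also read its close relatives, differed by 1.18 (SE 0.19, adjusted p = 0.068). Both were called with any 1 array left out. Ido1, which degrades tryptophan, read -3.63 and -0.19 in vehicle, 0.97 and 0.67 in TP-16, 1.65 and 1.67 in anti-PD-1 and 2.40 and 1.8 in combination tumors. The sides were separate, and the difference was 2.43 (SE 0.80, 5.38-fold, adjusted p = 0.113). It was 1.51 without vehicle replicate 1, and its call was lost without either anti-PD-1 array.

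Much of this list turned on vehicle replicate 1. Irgm1, Irgm2 and Igtp, immunity-related GTPases, differed by 1.14, 1.40 and 1.49 over all arrays and by 0.74, 0.92 and 0.94 without vehicle replicate 1, under a fold of 2. Irf1, with a difference of 1.00 (SE 0.28), differed by 0.71 without it. The list had 9 called genes (32.1%) and a median of 0.868 without vehicle replicate 1, which was the lowest of the 8 arrays for 25 of the 28. In that setting fibroblasts (5 of 10) and eosinophils and mast cells (3 of 7) had higher shares called. The count was 22 without vehicle replicate 2 and 12 without either anti-PD-1 array. Under the t-test of the methods 4 were called, and 3 passed adjustment with trended moderation. The receptor chains Ifngr1 and Ifngr2 differed by 0.21 (SE 0.10) and -0.10 (SE 0.09), and neither was called.

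**Figure D3:**
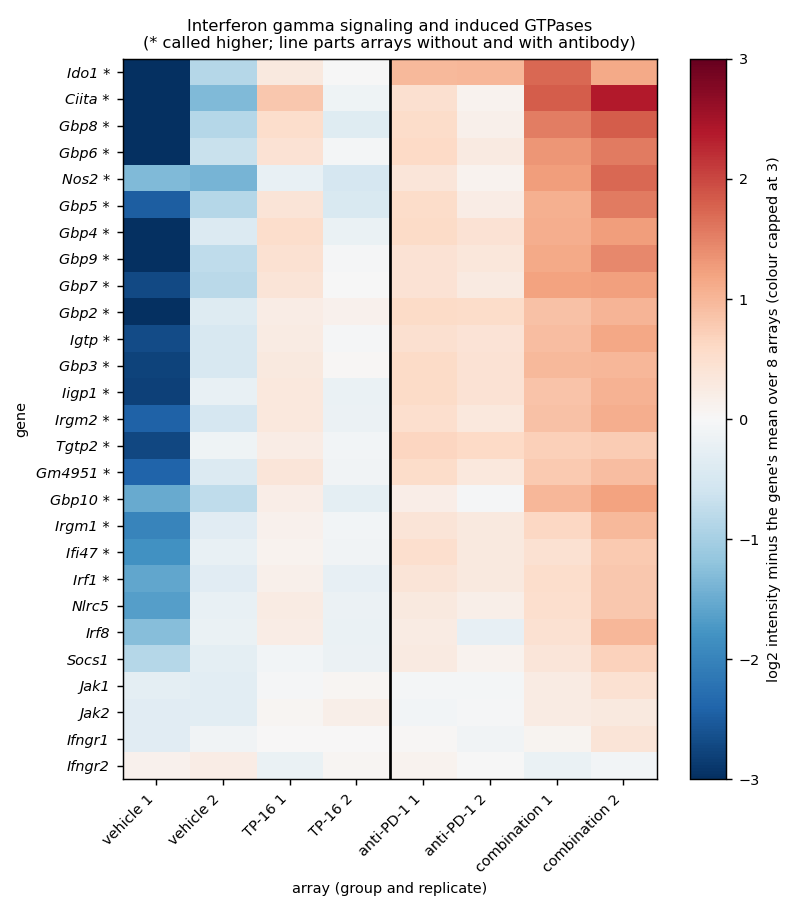
Level of 27 tested genes of the interferon gamma list on each array, relative to the mean of the gene over all 8 arrays (log2), with genes in rows, arrays in columns and colour capped at 3. Vehicle replicate 1 is the lowest column for most rows, and the 2 combination arrays are the highest for most rows.

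Promoters of the called interferon gamma genes are shown because their shared letters can be read beside the shared direction. The sequences are from RefSeq on assembly GRCm38.p6 and cover 120 bases before each gene start, and capitals mark matches to the GAS motif TTCNNNGAA, an element of interferon gamma-induced promoters, and to the core of the interferon-stimulated response element (ISRE) on either strand, bound by interferon regulatory factors. Igtp lies at chr11:58199436-58199555 on the plus strand, Irgm2 at chr11:58214857-58214976 plus, Tgtp2 at chr11:49064213-49064332 minus, Gbp7 at chr3:142530216-142530335 plus and Gm12250 at chr11:58183723-58183842 plus. The 5 are called list genes or named genes that held both motifs within 120 bases, a choice made after their values were seen. Not every chromosome was considered for printing, so other such genes may hold both motifs.
Igtp: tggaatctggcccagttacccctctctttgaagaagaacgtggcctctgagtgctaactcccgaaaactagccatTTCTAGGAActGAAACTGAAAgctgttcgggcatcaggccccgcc
Irgm2: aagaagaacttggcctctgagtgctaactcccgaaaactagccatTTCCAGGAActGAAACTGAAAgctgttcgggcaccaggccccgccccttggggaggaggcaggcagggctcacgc
Tgtp2: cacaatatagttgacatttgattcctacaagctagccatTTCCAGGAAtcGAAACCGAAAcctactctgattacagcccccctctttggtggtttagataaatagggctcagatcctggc
Gbp7: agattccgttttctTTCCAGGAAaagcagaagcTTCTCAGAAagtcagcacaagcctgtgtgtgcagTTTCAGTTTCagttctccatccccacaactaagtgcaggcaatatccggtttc
Gm12250: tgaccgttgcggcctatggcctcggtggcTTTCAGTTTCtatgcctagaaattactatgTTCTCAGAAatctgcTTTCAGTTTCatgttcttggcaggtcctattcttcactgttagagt

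Igtp, Irgm2 and Tgtp2 carry the GAS match 2 bases before the ISRE match, in the same order, starting 45, 75 and 81 bases before the gene start. In Gbp7 the motifs are 25 bases apart and in Gm12250 they are 6 apart. Gm12250, which is not on the list and was among the largest differences, read -2.36 and 0.03 in vehicle, 1.18 and 0.69 in TP-16, 1.45 and 1.48 in anti-PD-1 and 2.67 and 2.95 in combination tumors. Every antibody array lay above every other array, a difference of 2.25 (SE 0.50, 4.77-fold, adjusted p = 0.0726), or 1.70 without vehicle replicate 1, and a second probe differed by 1.69. Over 250 bases before the start and both strands, 7.02% of 32851 promoter windows held GAS and 2.98% ISRE, with 18 overlapping pairs of matches. Among tested genes with a promoter the shares were 7.55% and 3.37%, among the 375 called higher 12% and 7.73%, and among the 97 called lower 10.3% and 6.19%. Of 10 called list genes with a promoter, 6 held GAS and 8 ISRE, and of 6 uncalled list genes with a promoter 1 held each. The uncalled list genes included the signaling parts Ifngr1, Ifngr2, Jak1 and Jak2, while GTPases were listed because interferon gamma induces them. That split therefore follows in part from how the list was made and is no test of the motifs. A match describes the letters of a window, and binding was not measured.

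Antigen-presentation genes are given by class. Of 16 class I and peptide-loading genes 1 was called higher, Tap2, with a median of 0.30. Tap2, a subunit of the peptide transporter, read 3.70 and 4.90 in vehicle, 4.74 and 4.73 in TP-16, 5.48 and 5.32 in anti-PD-1 and 5.79 and 6.09 in combination tumors. The sides were separate, with a difference of 1.15 (SE 0.25, adjusted p = 0.0723) that was 0.92 and not called without vehicle replicate 1. Erap1, a peptide-trimming enzyme, differed by 0.47 (SE 0.16) and was not called. H2-K1 and H2-D1, classical class I chains, differed by 0.17 and 0.19 (SE 0.18 each), or -0.03 and 0.01 without vehicle replicate 1, and B2m, their light chain, by -0.07 (SE 0.10). Without vehicle replicate 2 the list had 4 called genes.

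Class II genes had 4 of 10 called higher, with a median of 1.43. Ciita, the master activator of class II transcription, read -2.45 and 0.41 in vehicle, 2.54 and 1.6 in TP-16, 2.21 and 1.83 in anti-PD-1 and 3.54 and 4.11 in combination tumors. Vehicle was low and the combination high, while TP-16 and anti-PD-1 overlapped. Its difference was 2.40 (SE 0.64, adjusted p = 0.0859), or 1.70 without vehicle replicate 1, and other Ciita probes differed by 0.986 and 2.09. H2-DMa, a peptide-exchange chaperone, differed by 1.04 (SE 0.32), and 0.74 without vehicle replicate 1. H2-Aa differed by 1.90 (SE 0.60) and H2-Ab1 by 1.39 (SE 0.67, adjusted p = 0.222), so H2-Ab1 was not called. Without vehicle replicate 1 these were 1.24 and 0.62. The median effect of the list was 2.27 without TP-16 and 0.671 with it, but against vehicle replicate 2 alone the first was 0.746, and Ciita then had 1.61 without TP-16 and 1.75 with it. Against vehicle replicate 1 alone the list median was 3.74 without TP-16, and Ciita had 4.47. Without vehicle replicate 1 the median difference was 0.703. The count was 2 without vehicle replicate 1, anti-PD-1 replicate 1 or combination replicate 2, 8 without vehicle replicate 2, and 0 by the methods' t-test.

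Antiviral genes of the type I interferon response were higher in mean for 28 of 29, with a median of 0.683, and 2 were called higher. Those were Oas3 at 1.1 (SE 0.24) and Oasl2 at 1.03 (SE 0.27), enzymes of the oligoadenylate pathway, and both calls were lost without vehicle replicate 1 or anti-PD-1 replicate 1. Of the 29, 22 were higher at an unadjusted p of at most 0.05, against 9.73% of all gene names. Under spike-in scaling 15 of the 29 were called higher. Bst2, a membrane tether of viruses, had the smallest p and differed by 0.81 (SE 0.14, adjusted p = 0.0692) without overlap between the sides, and Rsad2, or viperin, by 0.92 (SE 0.19). A second Rsad2 probe was called at 1.00 (SE 0.24). The count was 0 without either of those arrays and 6 without combination replicate 1.

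Chemokines and their receptors had 10 of 36 called higher and 1 lower, with a median of 0.564. Ccl5, which attracts T cells and monocytes, read 1.78 and 2.50 in vehicle, 4.76 and 3.99 in TP-16, 4.22 and 4.26 in anti-PD-1 and 5.83 and 6.55 in combination tumors. Each agent's arrays sat above vehicle and the combination above all, with a difference for the antibody of 1.96 (SE 0.26, 3.89-fold, adjusted p = 0.068). Ccl4 differed by 1.31 (SE 0.23, adjusted p = 0.0696) and Ccl3 by 1.28 (SE 0.30), both inflammatory chemokines, and for both the sides were separate. Cxcr3, the receptor for Cxcl9, Cxcl10 and Cxcl11 on activated T cells, differed by 1.31 (SE 0.23). These 4 were called with any 1 array left out. Cxcl10 differed by 1.1 (SE 0.26), or 0.84 and not called without vehicle replicate 1. Cxcl9 read 0.89 and 4.11 in the vehicle arrays, so its difference of 1.59 had an SE of 0.66 and was called in 1 of 8 fits with an array left out.

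Ccl12, a monocyte chemokine, went the other way. It read 5.67 and 5.16 in vehicle, 4.55 and 5.42 in TP-16, 4.57 and 4.25 in anti-PD-1 and 3.80 and 3.94 in combination tumors. TP-16 replicate 1 reached the level of the antibody arrays, and the difference was -1.06 (SE 0.21, adjusted p = 0.0722). The call was lost without vehicle replicate 1 or TP-16 replicate 2, under spike-in scaling, under quantile normalization and in the authors' values. The chemokine list had 6 called higher without TP-16 replicate 2, anti-PD-1 replicate 1 or combination replicate 2. Of 20 cytokine genes, 1 was called higher, Il10 at 1.02 (SE 0.24), well above background on 2 of 4 arrays without antibody and 3 of 4 with it, whose call was lost without TP-16 replicate 1, anti-PD-1 replicate 1 or combination replicate 2. Il1rn, the interleukin-1 receptor antagonist, had the smallest p and differed by 0.87 (SE 0.14), under the fold of 2, and Il21 differed by -0.47 (SE 0.10, well above background on 2 of 4 antibody arrays), while the median of the list was -0.0604, or 0.304 under spike-in scaling. Of 6 Fc gamma receptor genes, 1 was called higher, Fcgr4 at 1.38 (SE 0.53), a call lost without 5 of the 8 arrays in turn and at 0.82 without vehicle replicate 1, and their shared signaling chain Fcer1g differed by 0.56 (SE 0.21).

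Retnla, a macrophage marker of alternative activation, was the largest difference of this contrast. It read -0.96 and -0.44 in vehicle, 2.53 and 3.38 in TP-16, 5.11 and 4.64 in anti-PD-1 and 5.30 and 5.69 in combination tumors. Arrays of either agent alone lay above vehicle and the 4 antibody arrays were close together, so the effect was 5.58 without TP-16 and 2.54 with it. The averaged difference was 4.06 (SE 0.63, 16.6-fold, adjusted p = 0.068), and the difference of the 2 effects had an adjusted p of 0.392. Arg1, arginase, read 2.95 and 2.66 in vehicle, 2.54 and 3.41 in TP-16, 3.98 and 3.79 in anti-PD-1 and 4.12 and 4.28 in combination tumors. The sides were separate, with a difference of 1.15 (SE 0.20, adjusted p = 0.0692), and 0.96 without TP-16 replicate 1. These were the 2 called genes of 14 macrophage markers, whose median was 0.597. Mrc1 and Chil3, also markers of alternative activation, were not called. Mrc1 had effects of -0.43 without TP-16 and 0.17 with it, and Chil3 of 0.76 and 0.61. The pan-macrophage genes differed less, Cd68 by 0.65 (SE 0.17), Adgre1 by 0.91 (SE 0.26) and Csf1r by 0.42 (SE 0.19), none called. Spike-in scaling adds 0.36 to each, which takes Cd68 and Adgre1 past the fold of 2. The markers summed to 237 to 312 times the 75th percentile without antibody and 304 to 679 times with it.

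Proteases of mast cells were called higher with antibody. Cpa3, a mast-cell carboxypeptidase, read 1.44 and 1.70 in vehicle, 1.87 and 2.08 in TP-16, 2.76 and 2.96 in anti-PD-1 and 3.31 and 3.64 in combination tumors. The sides were separate and replicates close, with a difference of 1.39 (SE 0.12, 2.63-fold, adjusted p = 0.068). Mcpt4, a mast-cell chymase, differed by 1.22 (SE 0.16, adjusted p = 0.068), and Fcer1a, the IgE receptor chain, by 0.98 (SE 0.11, adjusted p = 0.068), just under the fold of 2. Siglecf, a lectin of eosinophils and some macrophages, differed by 1.72 (SE 0.36), with 2 of 4 arrays without antibody well above background. Cpa3, Mcpt4 and Siglecf were the 3 called of 7 tested eosinophil and mast-cell genes, they were called with any 1 array left out, and 3 genes of the list passed adjustment with trended moderation. The eosinophil granule genes Epx and Prg2 were not well above background on both arrays of any group and were not tested, and Kit differed by 0.73 (SE 0.23) and was not called. The 7 summed to 8.31 to 12.5 times the 75th percentile without antibody and 20.1 to 30.5 times with it.

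Other immune lineages gave mixed directions. Of 11 B-cell and plasma-cell genes, 2 were called higher and 2 lower. Jchain, the joining chain of secreted antibodies, read -3.26 and -1.61 in vehicle, 0.67 and -0.37 in TP-16, 0.28 and 0.19 in anti-PD-1 and 1.51 and 1.56 in combination tumors, a difference of 2.03 (SE 0.45), or 1.57 without vehicle replicate 1. Mzb1, also of plasma cells, differed by 1.34 (SE 0.38), or 1.03 without that array, and was well above background on 3 of 4 arrays without antibody. Tnfrsf17, the plasma-cell receptor BCMA, differed by -0.45 (SE 0.09) and was not called. Ms4a1, which encodes CD20 of B cells, read -1.18 and -1.22 in vehicle, -2.47 and -2.97 in TP-16, -2.44 and -2.21 in anti-PD-1 and -3.03 and -4.37 in combination tumors. TP-16 arrays lay among the antibody arrays, and the difference was -1.06 (SE 0.28), whose call was lost without TP-16 replicate 1, anti-PD-1 replicate 1 or combination replicate 2. Cd79a, a B-cell receptor chain, was not well above background on any antibody array and was at least 1.47-fold lower there. Of 10 dendritic-cell genes, 2 were called higher, Flt3 at 1.12 and Clec9a at 1.48 (SE 0.60, well above background on 2 of 4 arrays without antibody), where the Flt3 call was lost without anti-PD-1 replicate 1 or combination replicate 2 and the Clec9a call without 5 of the 8 arrays in turn. Ccr7, a homing receptor of mature dendritic cells, differed by 0.89 (SE 0.18). Of 11 neutrophil genes 1 was called higher, Camp at 1.34 (SE 0.45), a call lost without vehicle replicate 1, TP-16 replicate 2 or combination replicate 2. Mmp8, a collagenase, differed by 0.67 (SE 0.17), and S100a8 and S100a9 differed by -0.33 and -0.52.

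Of 10 fibroblast genes, 3 were called higher (30%, against 2.63% of all genes), with a median of 0.821. Postn, a matrix protein, read 1.69 and 0.96 in vehicle, 1.76 and 1.17 in TP-16, 2.28 and 2.17 in anti-PD-1 and 3.11 and 3.5 in combination tumors, a difference of 1.37 (SE 0.27) with separate sides. Pdgfra, a growth factor receptor of fibroblasts, had the smallest p and differed by 0.69 (SE 0.11) without overlap, but its other probes differed by -0.47 (SE 0.18) and 0.07 (SE 0.12). Col1a1 differed by 1.26 (SE 0.30) and Fap by 1.11 (SE 0.44), and the count was 1 without TP-16 replicate 2 and 5 without vehicle replicate 1. No gene of the endothelium (10), skeletal muscle (13), epidermis (4) or adipose tissue (8) lists was called, nor of the exocrine pancreas (5), cell division (14) and hypoxia (12) lists. Under spike-in scaling 3 adipose, 2 muscle, 1 endothelial and 1 hypoxia gene were called higher. The epidermis list turned on single arrays, with a median difference of -0.598 that was 0.603 without TP-16 replicate 2. Krt14, a basal keratin, read 3.80 in TP-16 replicate 2 and 4.22 in anti-PD-1 replicate 2, against -4.92 to -0.35 on the other arrays. The smallest p values in those lists belonged to Vwf (0.92, SE 0.31) and Plvap (0.55, SE 0.20) in endothelium, Myh4 (0.92, SE 0.54) and Mb (0.68, SE 0.39) in muscle, and Trp63 (0.23, SE 0.11) and Krt10 (-0.52, SE 0.50) in epidermis. Second probes of Myh4 and Trp63 differed by -0.07 and -0.50. In adipose tissue they were Retn (0.69, SE 0.27) and Cidec (0.68, SE 0.42), and in pancreas Cel (-0.24, SE 0.14) and Cela1 (-0.34, SE 0.20). Among hypoxia and glycolysis genes Pfkfb3 differed by 0.99 (SE 0.22) and Hk2, a hexokinase, by 0.44 (SE 0.13). Skeletal muscle genes had a median effect of 0.544 without TP-16 and -0.113 with it, larger without it for 13 of 13, and for 4 of 13 against vehicle replicate 2 alone. They summed to 34.9 to 89.4 times the 75th percentile without antibody and 52.2 to 125 times with it, and the part of muscle in the immune lists was not tested. Endothelial genes had a median of -0.169 without TP-16 and 0.851 with it. For cell division the median was -0.125, close to that of all tested genes, and 0.239 under spike-in scaling, and 5 of 14 genes were lower at an unadjusted p of at most 0.05, against 21.3% of all gene names, with Ccnb1 at -0.26 (SE 0.08) and Birc5 at -0.23 (SE 0.07).

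Red-cell genes were lower without a clear fold. All 6 tested were lower at an unadjusted p of at most 0.05, against 21.3% of all gene names, with a median of -0.837, or -0.472 and 0 called under spike-in scaling. Hbb-bt, a beta globin whose probe may also read its near-identical neighbors, was the 1 called at -1.07 (SE 0.34). The call was lost without vehicle replicate 1 or either anti-PD-1 array, under quantile normalization, in the authors' values and with no TP-16 term. The globin genes Hbb-b1 and Hba-a1 differed by -0.96 (SE 0.28) and -0.82 (SE 0.24). The median effect was -1.42 without TP-16 and -0.336 with it, and the summed level spanned 174 to 918 without antibody and 134 to 296 with it. The part of blood in the other gene groups was not tested. Of 6 epithelial genes, 2 were called lower, Krt8 at -1.43 (SE 0.55) and Cdx2, an intestinal transcription factor, at -1.28 (SE 0.37). Cdx2 was well above background on 1 of the 4 antibody arrays and 3 of the 4 others. Epcam and Vil1, epithelial markers, were not well above background on both arrays of any group, while the keratin gene Krt18 read 1.66 to 3.64. Krt8 was called in 3 of 8 fits with an array left out, and Cdx2 in 7.

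**Figure D4:**
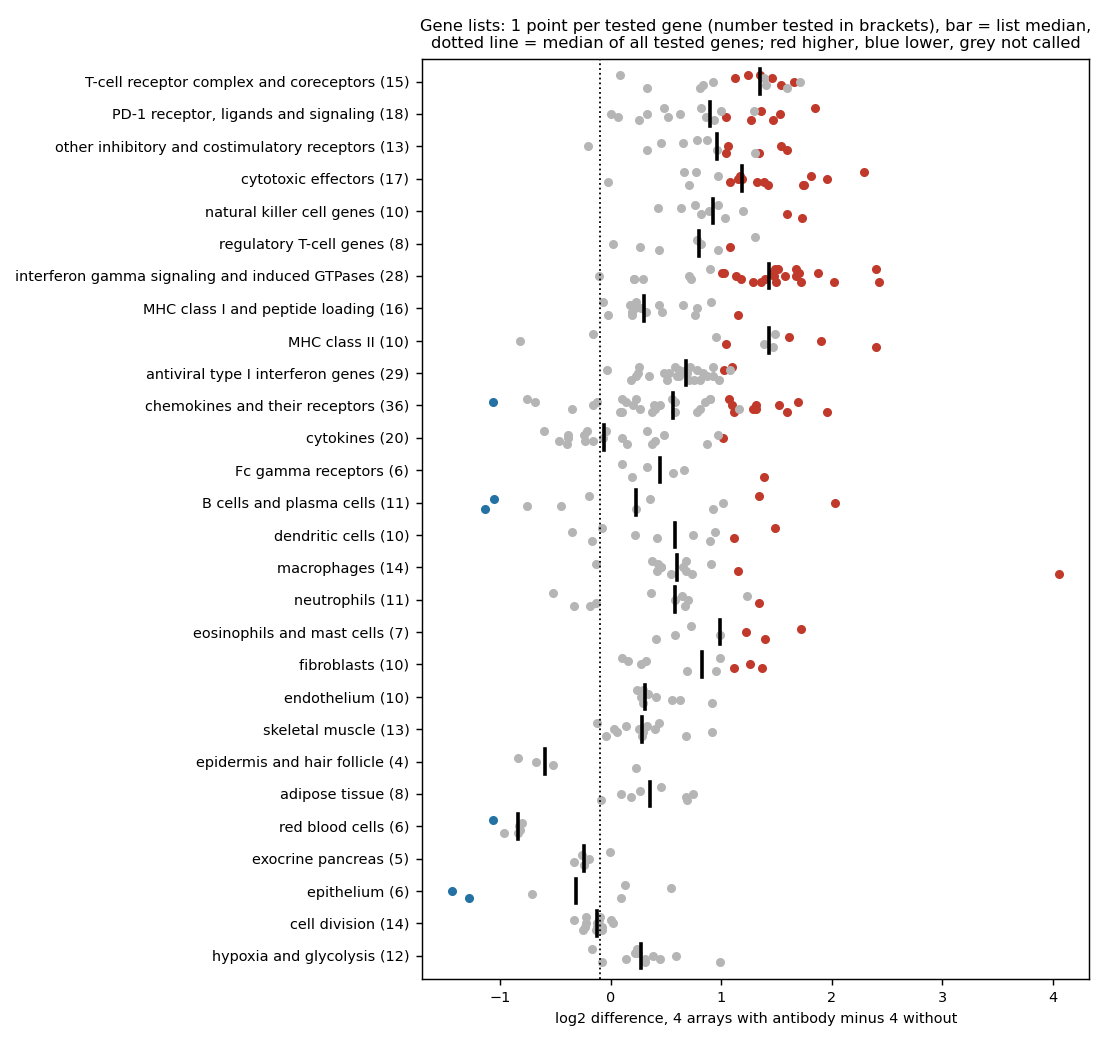
Log2 difference of every tested gene on each of the 28 lists (antibody minus no antibody, points) with the median of each list, and with the median of all tested genes, -0.0944, as a line. The interferon gamma and class II lists have the highest medians, 1.43 each, and red-cell genes the lowest, -0.837. Without vehicle replicate 1 those 2 medians were 0.868 and 0.703, under the 0.984 of eosinophils and mast cells.

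Of the 12 genes with the largest positive differences and separate sides, Retnla, Ido1 and Gm12250 are described above. Inpp5j, an inositol phosphatase, read -4.81 and -2.40 in vehicle, -1.0 and -2.17 in TP-16, 0.44 and -0.83 in anti-PD-1 and 0.40 and 1.24 in combination tumors, a difference of 2.91 (SE 0.62, adjusted p = 0.0723), or 2.32 without vehicle replicate 1, which was not well above background. Reg1, a secreted lectin, differed by 2.19 (SE 0.48) and Gm15056 by 2.39 (SE 0.56). Plagl1, a zinc-finger transcription factor, differed by 2.23 (SE 0.55), and its second probe by 0.107. Tdrd9 differed by 2.46 (SE 0.48), but its probe was not well above background on any array without antibody, so that probe was at least 1.56-fold higher on the antibody side. Another Tdrd9 probe, not tested, was well above background on some array without antibody, so no bound is given for the gene. Fabp7, a fatty acid binding protein, and Mn1 were well above background on all 4 antibody arrays and 1 of the 4 others, with measured differences of 2.28 (SE 0.37) and 2.05 (SE 0.33). Unnamed transcripts ENSMUST00000103599 and ENSMUST00000103423, at 2.21 and 2.12, were so on 1 and 2 of the 4 arrays without antibody. Each gene of this paragraph except Ido1, whose call was lost without either anti-PD-1 array, was called with any 1 array left out.

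The 12 largest negative differences with separate sides were smaller and mostly at the dim end. Of the 201 genes called lower, 102 were not well above background on any antibody array and 50 were well above it on all 8 arrays. Pnma5 read -2.46 and -2.75 in vehicle, -3.71 and -3.80 in TP-16, -4.23 and -4.48 in anti-PD-1 and -5.30 and -6.71 in combination tumors. It was not well above background on any antibody array and was at least 2.39-fold lower there (adjusted p = 0.068). Kash5 was likewise at least 1.49-fold lower. Rn7s1, a 7SL RNA of the signal recognition particle with many genomic copies, was the bright exception. It read 5.14 and 5.64 in vehicle, 5.53 and 5.27 in TP-16, 4.80 and 4.71 in anti-PD-1 and 3.78 and 3.46 in combination tumors, a difference of -1.21 (SE 0.26, adjusted p = 0.0723) with separate sides. Prr7 differed by -1.31 (SE 0.34) and Gm10536 by -1.36 (SE 0.42), the latter not called without combination replicate 2. Ddo, an amino acid oxidase, and the entries BY718677 and AW492943 were each well above background on 1 of 4 antibody arrays, and Ddo had a measured difference of -1.34 (SE 0.31). Entries without a gene symbol were BY718677 at -1.59 (SE 0.46), AW492943 at -1.21 (SE 0.49), whose call was lost without 6 of the 8 arrays in turn, and 3 transcripts the array names by their genomic interval, at -1.69 to -1.3 and well above background on 1, 2 and 4 antibody arrays. Vmn1r148, annotated as a vomeronasal receptor, differed by -1.26 (SE 0.19) and was well above background on 2 of 4 antibody arrays. Spike-in scaling adds 0.36 to every difference, which takes Rn7s1, Prr7, Vmn1r148, Kash5, Ddo and AW492943 under the fold of 2.

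The antibody effect was set side by side without and with TP-16. Across 21616 genes, which are not independent replicates, the effect without TP-16 and the effect with it had a correlation of 0.393. Among the 569 called higher, 252 were past a fold of 2 in both settings, as were 66 of the 201 called lower. Since a call averages both effects, that the sign was shared by 765 of 770 follows largely from the calling. A test of the difference between the effects found 0 probes at an adjusted p of 0.05, with a smallest adjusted p of 0.0704, and 1022 past the threshold used for calls. Among called genes 125 had an unadjusted interaction p of at most 0.05. By list, the effect was larger without TP-16 for 24 of the 28 interferon gamma genes (median 1.94 against 0.857) and smaller for all 10 endothelial genes. The first pattern depended on which vehicle array was kept. Against vehicle replicate 2 alone, a comparison chosen after seeing the data, the effect was larger without TP-16 for 10 of the 28 interferon gamma genes (median 0.879 against 0.857), while it stayed smaller for all 10 endothelial genes. The order turned for Ifng, from 2.93 to 1.38 without TP-16 against 1.65 with it, and for Cd274, from 1.77 to 1.16 against 1.29. Against vehicle replicate 1 alone, the effect was larger without TP-16 for 25 of the 28 interferon gamma genes (median 2.85 against 0.857). It was larger for 1 of 10 endothelial genes, and Ifng then had 4.47 and Cd274 2.385 without TP-16. Vehicle replicate 2 was the array with the low spike-in slope. Interaction calls at an adjusted p of 0.05 numbered 17 under spike-in scaling, 14 under quantile normalization and 13 without vehicle replicate 2.

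**Figure D5:**
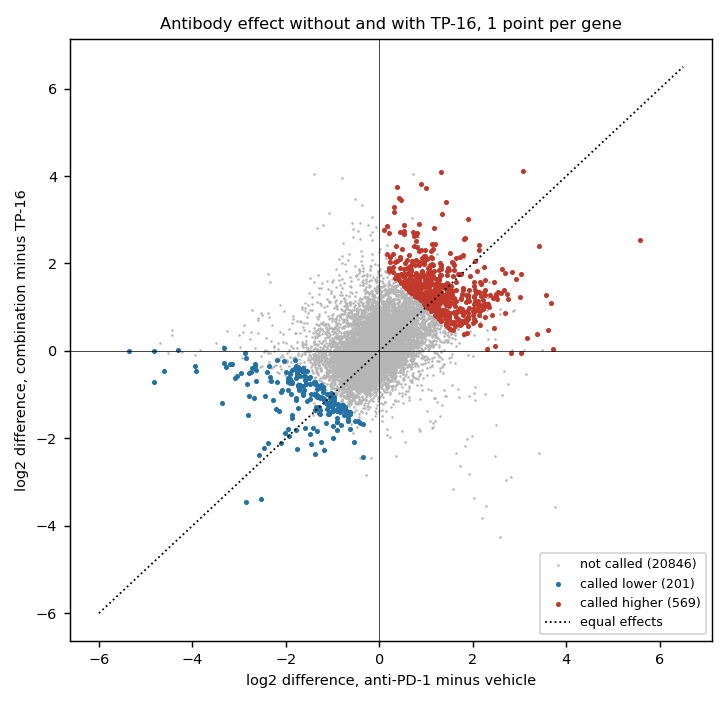
Antibody effect without TP-16 (x axis) against the effect with TP-16 (y axis), both log2, for every tested gene, with called higher genes in red, called lower genes in blue and a dotted line at equal effects. Retnla sits at 5.58 and 2.54, and granzymes c to f lie near 0 on the x axis and at 2.21 to 3.51 on the y axis.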

How the data were processed

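Gene expression was measured with 1-colour Agilent SurePrint G3 mouse arrays in 8 tumor samples. The deposited scanner files hold background-subtracted intensity values made by the authors' provider with Agilent Feature Extraction 10.7.1.1, per the file headers. The value table deposited by the authors holds log2 values, normalized by them in GeneSpring, and served as an alternative. The labels and the methods name different RNA extraction reagents. No column of an unmapped sample was found (0).

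Intensities were scaled to the 75th percentile of each array on the log2 scale. Control spots and outlier-marked spots were left out, which dropped 38 of 56605 probes. The plan had named removal of every probe with an outlier mark on any array, so spots were removed where probes were meant. Spots of a probe were averaged, and a probe was tested if some group had it well above background on each of its 2 arrays. A gene is given by its brightest probe. The additive model of antibody and TP-16 was fitted with limma 3.58.1 in R 4.3.3 over all 31912 tested probes, with 5 residual degrees of freedom and Benjamini-Hochberg adjustment. The fit was checked on simulated data. "At least" folds set the brighter side's mean against the lowest signal well above background. The number of arrays limits the precision.

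Named genes were 2 of each list by smallest p, 11 fixed genes and the 12 largest differences in each direction with separate sides. Members and lists were chosen with earlier results of these data known. RefSeq named 58.3% of probes. Probe positions on the arrays are of build mm9, whereas promoters are of GRCm38.p6, and the 2 were not combined. The ISRE search used a 10-letter core, named without its letters. Values of some list members are not reported here, although the list counts include them.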

Additional observations from a re-analysis of the deposited data

Results flagged for a closer look

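In 170 sets of 4 arrays of a named gene, 3 held an array far from the other 3. Chance alone marks about 1 in 20 sets drawn from 1 normal group. Each set here joined 2 treatment groups, and some genes were named for separate sides, so that rate need not hold. ENSMUST00000103423 read -6.32 in vehicle replicate 1, and the other arrays without antibody read -4.24 to -4.17. AW492943 read -1.87 in vehicle replicate 2, against -4.32 to -4.04. Tap2 read 3.70 in vehicle replicate 1, against 4.73 to 4.90. All 3 lie on vehicle arrays, and their cause was not tested.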

How the results depend on the processing

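The count of probes past an adjusted p of 0.05 and a fold of 2 was 0, and 170 after normexp, 108 with the stricter filter (each array well above background), 6 with 1 mean per group and 430 with trended and robust moderation. It was 0 under quantile normalization, the authors' values, no filter, no TP-16 term, 1 probe per gene, the methods' t-test and a fold of 1.5. Alternatives chosen after seeing the data gave 1381 with spike-in scaling, 15 with array weights and 2 under quantile normalization without either vehicle array. Leaving out 1 array gave 0 to 2.

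The count at an unadjusted p was 990, and 282 after normexp, 1639 without a filter (48.6% higher, against 73.9%), 511 with the stricter filter (88.8% higher), 447 by the methods' t-test, 1993 with spike-in scaling (96.8% higher) and 2764 at a fold of 1.5. Leaving out 1 array gave 665 to 1322. The test of the difference between effects had 0 adjusted calls, 14 under quantile normalization, 14 with the authors' values, 17 with spike-in scaling and 0 to 13 with 1 array left out. Deviations of same-numbered replicates correlated at -0.193 to 0.29, so the numbers do not pair the samples, and the replicate block gave 1 adjusted and 978 unadjusted calls.

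Of single-gene values under alternatives, 1807 kept direction and side, 124 lost and 76 gained the call and 13 turned. Spike-in scaling turned Lamp1 (0.339), Ccnb1 (0.109), Birc5 (0.134), Cel (0.125) and Cela1 (0.0275). Lamp1 turned to 0.209 under quantile normalization, 0.0118 after normexp, 0.210 with the authors' values, 0.00804 with array weights, and 0.249 and 0.207 under quantile normalization without vehicle replicates 2 and 1. With 1 array left out Lamp1 ranged from -0.0550 to 0.0127, and Krt10 from -0.834 to 0.0207, turning without TP-16 replicate 2. The causes were not tested. Signal over background limits the genes called lower.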
